A study of Mus musculus with 6 samples.

Results

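The 40 genes described here encode the machinery of mitosis: the cyclins and kinases that start it, the kinetochore and spindle proteins that move the chromosomes, the checkpoint that times their separation, and the proteins that divide the cell. They were taken as the rows of the deposited tables whose gene symbol equalled 1 of 40 named symbols. Each symbol matched 1 of 22958 gene entries, and all 40 were among the 12661 genes that passed the filter on low counts. The 6 libraries were polyadenylated RNA from brain endothelial cells of mouse embryos at E11.5 (embryonic day), sorted on CD31 (PECAM1), a surface protein of endothelium that platelets and some macrophages also carry. The 3 Axin1 libraries carried the modification given as Cdhrs5CreERT2:R26Axin1IL+/-, an Axin1 overexpression allele at the R26 locus together with a Cre recombinase that tamoxifen activates. The 3 control libraries were given as Cdhrs5CreERT2:R26Axin1IL-/- and as having wildtype Axin1. Both groups shared the Cre line, the mixed C57BL/6 x 129/Sv strain and tamoxifen given to the mother at E9.5. No label says what share of cells had recombined or whether embryos were pooled. Libraries are labelled as biological replicates but no litter is named, and p-values therefore reflect only how far these 6 libraries varied.

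A cell enters mitosis when cyclin B binds the kinase CDK1 and the phosphatase CDC25 removes the inhibitory phosphates on it. Kinetochores assembled on centromeres then capture spindle microtubules, and unattached kinetochores keep the anaphase-promoting complex (APC/C), a ubiquitin ligase, inactive through the BUB and MAD proteins. Transcripts of these genes are low in resting cells and accumulate as dividing cells approach mitosis, so in a bulk sample they are commonly read as a sign of proliferation. The endothelium of the embryonic brain divides as vessels grow into the neural tube. Beta-catenin, whose degradation Axin1 promotes, is a growth signal in many tissues. The comparison asks whether mitotic transcripts differed when Axin1 was overexpressed. In bulk RNA, fewer dividing cells and less of a transcript per dividing cell cannot be told apart.

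Many mitotic genes share a promoter architecture. The CCAAT box is bound by the factor NF-Y. The cell cycle genes homology region, with the core TTTGAA, is bound by the MuvB complex, which represses these genes together with p107 or p130 (Rbl1 and Rbl2) and activates them together with B-Myb (Mybl2) and FOXM1. Promoters of 7 members are printed below, because these members are described most fully: Bub3 and Racgap1 had the smallest p-values, Cdk1, Ccnb1 and Ccnb2 form the switch into mitosis, Top2a was the steadiest member and Cdc20 activates the APC/C. Each is the 250 bases before the annotated gene start in RefSeq (build GRCm38.p6), 5′ to 3′ on the gene's strand, with every CCAAT and TTTGAA match in capitals. A match on the opposite strand reads ATTGG or TTCAAA.
Bub3, chr7:131560120-131560369, plus strand: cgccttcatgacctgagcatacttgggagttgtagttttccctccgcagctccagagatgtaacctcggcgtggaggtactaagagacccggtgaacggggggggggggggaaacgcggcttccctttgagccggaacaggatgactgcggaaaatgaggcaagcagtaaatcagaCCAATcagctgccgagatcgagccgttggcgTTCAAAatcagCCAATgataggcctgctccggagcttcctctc
Racgap1, chr15:99651657-99651906, minus strand: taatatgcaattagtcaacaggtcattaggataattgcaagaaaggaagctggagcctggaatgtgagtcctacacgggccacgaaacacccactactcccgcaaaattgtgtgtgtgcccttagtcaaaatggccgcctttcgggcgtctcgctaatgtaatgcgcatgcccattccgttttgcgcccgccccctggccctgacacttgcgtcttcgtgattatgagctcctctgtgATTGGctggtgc
Cdk1, chr10:69352913-69353162, minus strand: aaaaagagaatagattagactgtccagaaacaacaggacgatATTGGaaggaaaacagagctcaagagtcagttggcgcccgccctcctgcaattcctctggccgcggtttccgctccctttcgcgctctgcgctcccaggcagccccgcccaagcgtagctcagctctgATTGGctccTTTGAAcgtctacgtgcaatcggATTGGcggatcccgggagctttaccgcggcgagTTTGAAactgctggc
Ccnb1, chr13:100786487-100786736, minus strand: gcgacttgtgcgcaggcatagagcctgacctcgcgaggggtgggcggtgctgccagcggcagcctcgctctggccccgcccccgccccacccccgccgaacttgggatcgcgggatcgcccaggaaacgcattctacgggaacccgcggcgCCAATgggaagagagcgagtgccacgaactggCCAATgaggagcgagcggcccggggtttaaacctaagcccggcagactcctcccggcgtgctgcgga
Ccnb2, chr9:70421555-70421804, minus strand: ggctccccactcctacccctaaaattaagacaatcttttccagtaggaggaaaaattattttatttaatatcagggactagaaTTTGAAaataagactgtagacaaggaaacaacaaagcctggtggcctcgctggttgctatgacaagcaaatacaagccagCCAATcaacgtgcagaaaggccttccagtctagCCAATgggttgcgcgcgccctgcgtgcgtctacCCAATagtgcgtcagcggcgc
Top2a, chr11:99024190-99024439, minus strand: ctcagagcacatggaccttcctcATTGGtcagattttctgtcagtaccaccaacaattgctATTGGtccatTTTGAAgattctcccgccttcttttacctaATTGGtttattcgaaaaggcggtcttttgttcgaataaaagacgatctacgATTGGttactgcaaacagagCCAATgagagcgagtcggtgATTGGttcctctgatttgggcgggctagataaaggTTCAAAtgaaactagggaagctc
Cdc20, chr4:118437344-118437593, minus strand: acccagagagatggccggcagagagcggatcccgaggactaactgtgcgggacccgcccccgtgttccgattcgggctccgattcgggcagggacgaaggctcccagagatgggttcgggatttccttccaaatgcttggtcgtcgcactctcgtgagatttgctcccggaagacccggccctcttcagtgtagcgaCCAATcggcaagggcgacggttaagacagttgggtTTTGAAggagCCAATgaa

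In the Ccnb1 promoter 2 CCAAT boxes start at positions -99 and -67, and in the Ccnb2 promoter 3 start at -87, -54 and -21, where -1 is the base before the gene start. Cdk1 has the same arrangement on the opposite strand, at -80 and -48, with TTTGAA at -71 and -15. Top2a has 5 opposite-strand CCAAT matches between -227 and -58 and 1 on its own strand. The 300-base windows, which run 50 bases past the gene start, were searched on both strands for 32 of the 40 members. Ccna2, Cdc25c, Aurkb, Incenp, Spc24, Tpx2, Dlgap5 and Kif20a had no entry in the promoter reference and were not searched. CCAAT was present in 25 of the 32 (78.1%) and in 37.9% of 27025 genes with a window of the same length. Among the 32, 25 (78.1%) also held TTTGAA, against 18.1% of all genes, and 22 (68.8%) held both, against 7.12%. Within 50 bases of the gene start, a span chosen after the positions were seen, TTTGAA lay in 23 members (71.9%) and in 4.92% of genes. CCAAT boxes starting 31 to 33 bases apart on 1 strand, a spacing also chosen after the positions were seen, occurred in Cdk1, Ccnb1, Ccnb2, Aurka, Spc25, Ube2c and Hmmr (21.9% of members and 0.862% of genes). In 1 member a CCAAT match overlapped a TTTGAA match. These letters describe the sequences and are not evidence of binding in these cells.

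None of the 40 mitotic genes changed in the Axin1 libraries by edgeR's quasi-likelihood test at a Benjamini-Hochberg adjusted p of 0.05 over all tested genes. Among all tested genes 0.355% were higher and 0.49% lower by that rule. The largest values were small: log2 fold changes of the members, Axin1 over control, ran from -0.41 for Bub3 to 0.48 for Racgap1. Their median was -0.10, beside 0.02 for all tested genes, and 31 members lay below 0 and 9 above, while 47.5% of all tested genes lay below 0. Adjusted p-values ran from 0.121 to 0.986. At an unadjusted edgeR p under 0.05 there were 2 members (5%), Bub3 and Racgap1, against 17.2% of all tested genes. DESeq2 called 5.69% of all genes and 0 members, with its smallest member adjusted p at 0.0551 for Racgap1 and 2 members at an unadjusted p under 0.05. The main fit used no pairing. An edgeR fit blocked on title number, in the 4 libraries that share these numbers between groups, called 11.9% of all genes and 4 members.

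Under the main fit, the intervals bounded each gene's difference in the bulk RNA, where the share of recombined cells is not known. All 40 of the 95% confidence intervals, taken gene by gene, lay within a 2-fold change in either direction, which held for 65.7% of all tested genes. For 29 members (72.5%) the interval lay within 1.5-fold, against 34.7% of all tested genes. The lowest bound was -0.78 for Spc24 and the highest 0.82 for Ccnb2, both on the log2 scale. The median standard error was 0.14 for the members and 0.20 for all tested genes. Each member had between 401 and 11608 reads in every library, so counting error was at most 4.99% of a value. The spread of each member was not split into counting error and other differences between libraries. A p above the threshold does not show that the groups were equal.

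**Figure D1:**
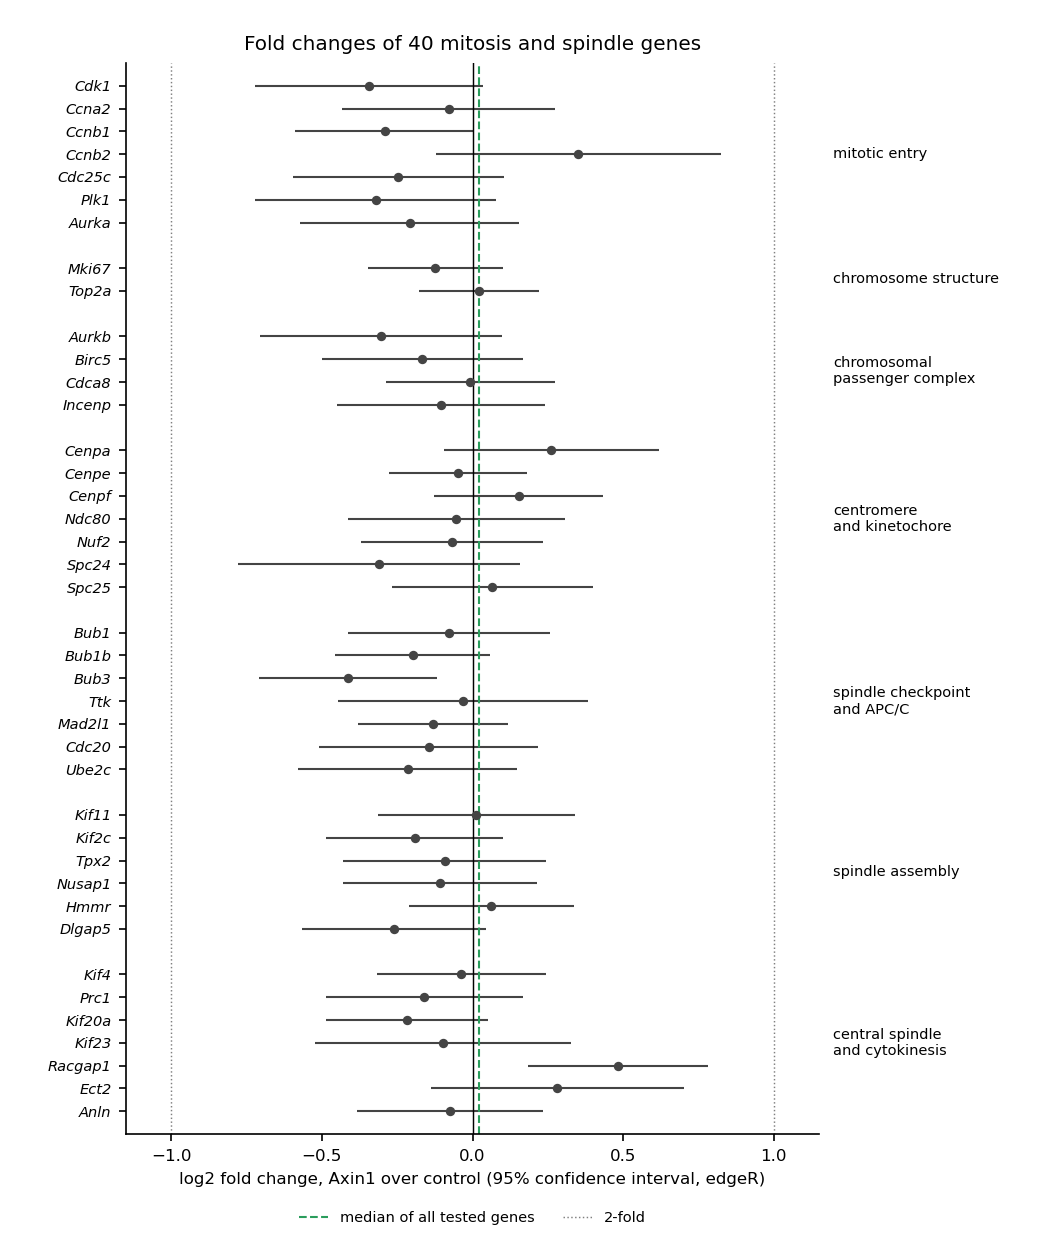
Log2 fold change of each of the 40 genes, Axin1 over control, with its 95% confidence interval from edgeR (n = 3 libraries each), grouped by role. Every interval lies between the dotted lines at 2-fold, and those of Bub3 and Racgap1 do not include 0.

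Expression of the targeted gene fitted the labels. Axin1 stood at 79.8, 62.2 and 66.2 CPM (read counts scaled to library size with TMM factors) in Axin1 libraries 1, 2 and 3, against 25.0, 17.6 and 20.8 CPM in controls 1, 2 and 3 (log2 1.72, SE 0.17, edgeR adjusted p 0.0103). Without Axin1 library 2 or control 2 that adjusted p was 0.0721 or 0.0915. Reads assigned to genes numbered between 10772492 and 14234409 per library. The 8 endothelial markers summed to between 6598 and 7388 CPM in Axin1 libraries and between 6606 and 6879 CPM in controls, with 0 called. Their log2 fold changes were above 0 for 4 and below for 4, and single markers were less even than the sum. Cdh5 was at 981, 945 and 924 CPM in Axin1 libraries and 432, 502 and 846 CPM in controls (log2 0.68, edgeR adjusted p 0.218). Every Axin1 library lay below every control for Esam (log2 -0.31, edgeR adjusted p 0.176). The 8 tested neural progenitor and neuron markers summed to 349, 338 and 365 CPM in Axin1 libraries 1, 2 and 3 and to 289, 346 and 471 CPM in controls 1, 2 and 3. Nes, which endothelial cells can also express, made up the largest share in every library. Tubb3 and Fabp7 were highest in control 3, at 106 and 41.9 CPM, as were Pax6, Neurod1 and Sox2. Stmn2 was at 84.7 CPM there, against 111 and 124 CPM in controls 1 and 2, and Dcx was highest in Axin1 library 3. Sox2 was at 4.04 CPM or less. Their part in the results was not tested. Counts over the whole table depended on single libraries: 107 genes were called with all 6, and 0 to 695 with 1 left out.

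Levels per length, as the deposited RPKM, which scales reads by gene length and library size, placed the members in the upper part of all gene entries. The mean over 6 libraries ran from 13.9 RPKM for Cenpf, a large kinetochore protein, to 220.2 RPKM for Ube2c, the ubiquitin-conjugating enzyme of the APC/C. These levels lay above 78.1% and 97.9% of all 22958 gene entries, of which 5154 had no read in any library. Birc5, Bub3, Ccnb1, Top2a, Cdca8 and Cdk1 followed Ube2c, with means between 137 and 189.8 RPKM. Cenpf, Incenp, Ect2 and Ccna2 were the lowest in this order, with means between 13.9 and 17.2 RPKM. All 40 together took 0.703%, 0.62% and 0.58% of the reads in Axin1 libraries 1, 2 and 3 and 0.728%, 0.667% and 0.649% in controls 1, 2 and 3.

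**Figure D2:**
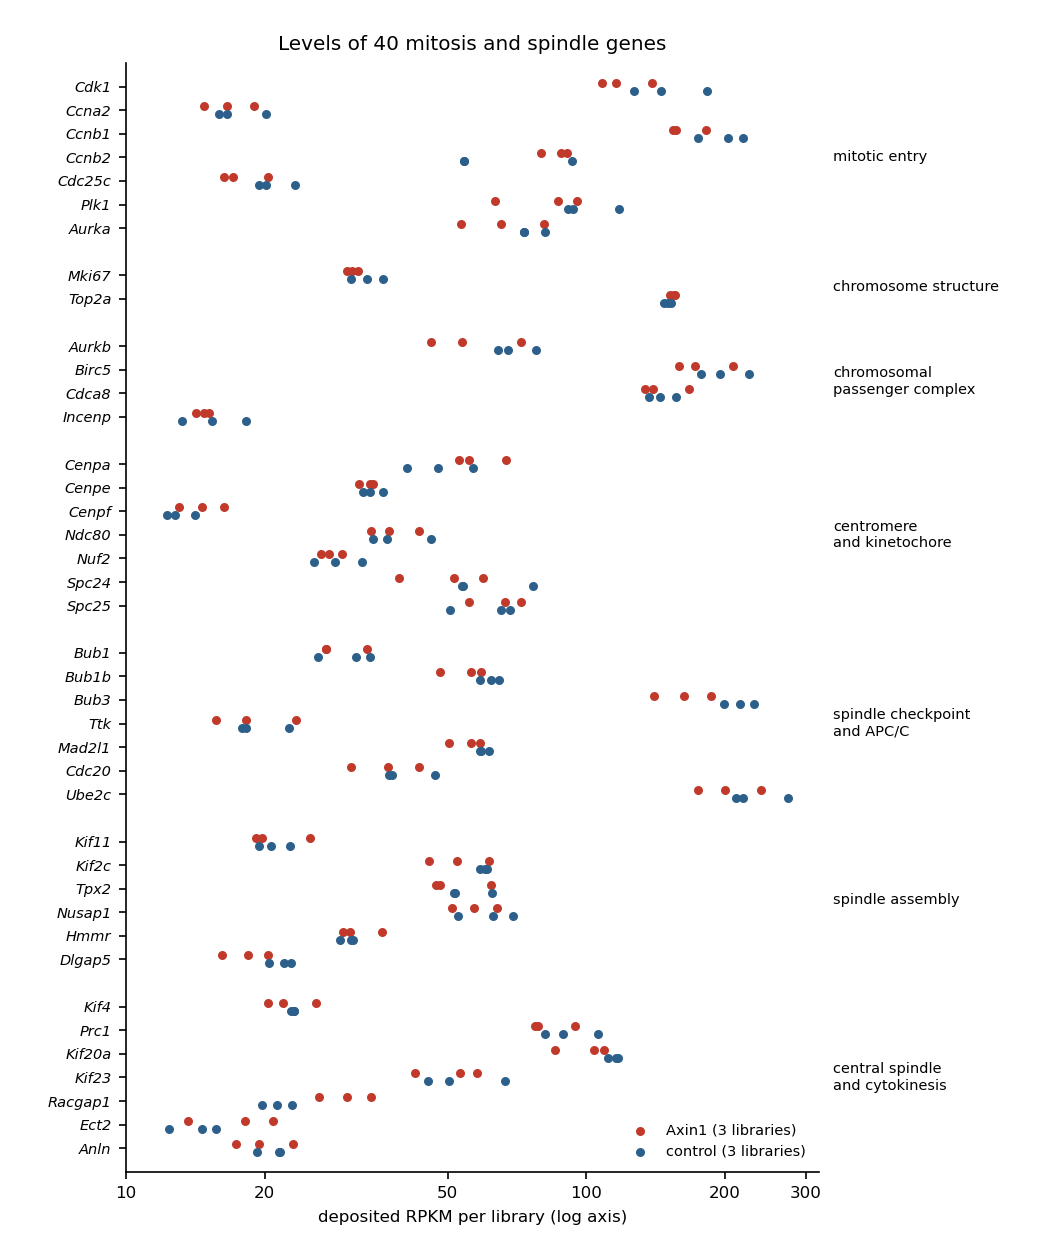
Deposited RPKM of each of the 40 genes in every library on a log axis, with 3 Axin1 and 3 control libraries as points. Ube2c and Birc5 are among the highest and Cenpf, Incenp and Ect2 among the lowest, and for most genes the points of the groups overlap.

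Among the 7 genes of mitotic entry, 6 had log2 fold changes below 0 and 1 above, with a median of -0.25, and 0 passed the test. Cdk1, the kinase that drives the transition, stood at 403, 329 and 314 CPM in Axin1 libraries 1, 2 and 3 and at 544, 419.8 and 363 CPM in controls 1, 2 and 3. Library 1 was the highest of its group and the groups overlapped (log2 -0.34, SE 0.17, edgeR adjusted p 0.337). Ccnb1, its main cyclin partner, had 206, 173 and 175 CPM in Axin1 libraries, against 254, 229 and 196 CPM in controls (log2 -0.29, SE 0.13, edgeR adjusted p 0.3). Control 3 lay below Axin1 library 1. Ccnb1 has 4 close pseudogene transcripts in the reference annotation, so its count is uncertain.

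Ccnb2, the second B-type cyclin, had the opposite sign. It was at 142, 134 and 125 CPM in Axin1 libraries and at 86.9, 84.4 and 144 CPM in controls, where control 3 lay above every Axin1 library (log2 0.35, SE 0.21, edgeR adjusted p 0.429). Leaving control 3 out moved it to 0.63 (edgeR adjusted p 0.0234), in a fit that called 5.37% of all genes and 1 of the 40 members. Over the 6 fits that left out 1 library its log2 fold change ran from 0.21 to 0.63. The other A- and B-type cyclin, Ccna2, which acts from S phase into early mitosis, averaged 41.1 ± 5.32 CPM in Axin1 libraries and 43.4 ± 5.55 CPM in controls (SD, n = 3 each).

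Plk1, the polo-like kinase that matures centrosomes and helps switch on CDK1, had 198, 176 and 132 CPM in Axin1 libraries, against 251, 189.5 and 192.5 CPM in controls (log2 -0.32, edgeR adjusted p 0.395). Cdc25c, the phosphatase that activates CDK1, was at 32.0, 32.7 and 40.02 CPM in Axin1 libraries and 47.0, 39.4 and 37.8 CPM in controls (log2 -0.25, edgeR adjusted p 0.461). Aurka, the centrosomal Aurora kinase, averaged 127 ± 27.0 CPM in Axin1 libraries and 147 ± 11.9 CPM in controls (SD, n = 3 each). In all 3 genes the groups overlapped.

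Of the members commonly stained or counted as proliferation markers, Top2a was nearly level between groups and Mki67 had a slightly negative log2 fold change. Mki67, which coats mitotic chromosomes and keeps them apart, had 301, 286 and 286 CPM in Axin1 libraries, against 298, 340.4 and 312 CPM in controls (log2 -0.12, 95% confidence interval -0.35 to 0.10). Top2a, the topoisomerase that untangles sister chromatids, was the steadiest of the 40, at 823, 799 and 804 CPM in Axin1 libraries and 816, 778 and 796 CPM in controls. Its log2 fold change was 0.02 with a 95% confidence interval of -0.18 to 0.22, the narrowest of the set. The edgeR adjusted p was 0.569 for Mki67 and 0.931 for Top2a.

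The 4 subunits of the chromosomal passenger complex, which corrects wrong attachments of chromosomes and later guides cleavage, all lay below 0, between -0.30 and -0.01, and 0 passed. Its kinase gene Aurkb had 143, 104 and 91.3 CPM in Axin1 libraries, against 158, 127 and 132 CPM in controls (log2 -0.30, edgeR adjusted p 0.423). Birc5, which encodes survivin, had 193, 156 and 148 CPM in Axin1 libraries, against 214, 181 and 162 CPM in controls (log2 -0.17, edgeR adjusted p 0.615). Axin1 library 1 lay among the controls for both genes. Cdca8 (borealin) and Incenp, the scaffold that binds the kinase, had log2 fold changes of -0.01 and -0.10.

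Centromere and kinetochore genes split in sign, with 3 of 7 above 0 and 4 below, a median of -0.05 and 0 calls. Cenpa, the histone H3 variant that marks centromeres, had 90.5, 73.6 and 71.7 CPM in Axin1 libraries, against 66.1, 55.0 and 75.8 CPM in controls (log2 0.26, edgeR adjusted p 0.439). Cenpf was at 183, 142 and 163 CPM in Axin1 libraries and 146, 137 and 156 CPM in controls (log2 0.15, edgeR adjusted p 0.572). The NDC80 complex, which grips microtubule ends, had log2 fold changes of -0.05 for Ndc80, -0.07 for Nuf2, -0.31 for Spc24 and 0.07 for Spc25. The kinetochore motor gene Cenpe was at -0.05, with a 95% confidence interval of -0.28 to 0.18.

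All 7 genes of the spindle checkpoint and the APC/C had log2 fold changes below 0, with a median of -0.15 and 0 calls. Bub3 (NM_009774), a WD-repeat protein that recruits BUB1 and BUBR1 to kinetochores, stood at 379.9, 325 and 287 CPM in Axin1 libraries 1, 2 and 3 and at 482, 405 and 434 CPM in controls 1, 2 and 3. All 3 Axin1 libraries lay below all 3 controls. Its log2 fold change was -0.41 (SE 0.13, 95% confidence interval -0.71 to -0.12), with an unadjusted p of 0.0117 and an edgeR adjusted p of 0.163. Mad2l1, the checkpoint protein that holds CDC20, had 97.6, 90.9 and 83.4 CPM in Axin1 libraries, against 99.8, 97.8 and 100.5 CPM in controls. Its CPM groups did not overlap either, by a gap far smaller than the spread within the Axin1 libraries (log2 -0.13, edgeR adjusted p 0.585). On the RPKM scale they overlapped, with Axin1 library 1 at 58.93 and control 1 at 58.88. A close pseudogene makes the Mad2l1 count uncertain.

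The checkpoint kinase genes Bub1 and Ttk, which encodes MPS1, were at -0.08 and -0.03. Bub1b, which encodes BUBR1, had 219.9, 204 and 179 CPM in Axin1 libraries, against 236, 239.8 and 216 CPM in controls (log2 -0.20, edgeR adjusted p 0.409). Cdc20, the APC/C activator that the checkpoint inhibits, was at 70.1, 58.5 and 49.8 CPM in Axin1 libraries and 61.5, 60.9 and 74.9 CPM in controls (log2 -0.15, edgeR adjusted p 0.692). Ube2c had 205, 167 and 149 CPM in Axin1 libraries, against 239.8, 186 and 178 CPM in controls (log2 -0.22, edgeR adjusted p 0.538). Neither gene separated the groups.

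Of the 6 spindle assembly genes 2 had log2 fold changes above 0 and 4 below, with a median of -0.10. The bipolar motor gene Kif11 was at 0.01, the microtubule-depolymerising kinesin gene Kif2c at -0.19 and the Aurora A activator gene Tpx2 at -0.09. Nusap1 and Hmmr, whose products bind spindle microtubules, were at -0.11 and 0.06. Dlgap5, which encodes the microtubule-stabilising protein HURP, had 59.4, 53.2 and 47.7 CPM in Axin1 libraries, against 68.9, 65.1 and 58.2 CPM in controls. Axin1 library 1 lay just above control 3 (log2 -0.26, edgeR adjusted p 0.365).

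In the genes of the central spindle and cytokinesis 2 of 7 lay above 0 and 5 below, with 0 calls. Racgap1 (NM_012025), the GTPase-activating subunit of centralspindlin, stood at 85.2, 94.0 and 74.3 CPM in Axin1 libraries 1, 2 and 3 and at 61.7, 55.6 and 64.2 CPM in controls 1, 2 and 3. All 3 Axin1 libraries lay above all 3 controls. The log2 fold change was 0.48 (SE 0.13, 95% confidence interval 0.19 to 0.78), with an unadjusted p of 0.00533 and an edgeR adjusted p of 0.121. A close pseudogene makes its count uncertain. Its partner in centralspindlin, the kinesin gene Kif23, was at -0.10, and Ect2, the RhoA exchange factor that RACGAP1 binds, at 0.28, with 84.1, 53.7 and 72.8 CPM in Axin1 libraries and 64.9, 58.7 and 49.5 CPM in controls.

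Kif20a, a kinesin that carries passenger proteins to the midzone, had 251, 232 and 195 CPM in Axin1 libraries, against 276, 262 and 250.2 CPM in controls (log2 -0.22, edgeR adjusted p 0.394). Prc1, which bundles midzone microtubules, Kif4, the motor that tracks them, and Anln, the anillin that links the cleavage ring to the membrane, were at -0.16, -0.04 and -0.08. By CPM, Racgap1 was 1 of all 40 genes with every Axin1 library above every control (11.3% of all tested genes). Bub3 and Mad2l1 were 2 with every Axin1 library below (12.4%). The member shares, 2.5% and 5%, were under these backgrounds.

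**Figure D3:**
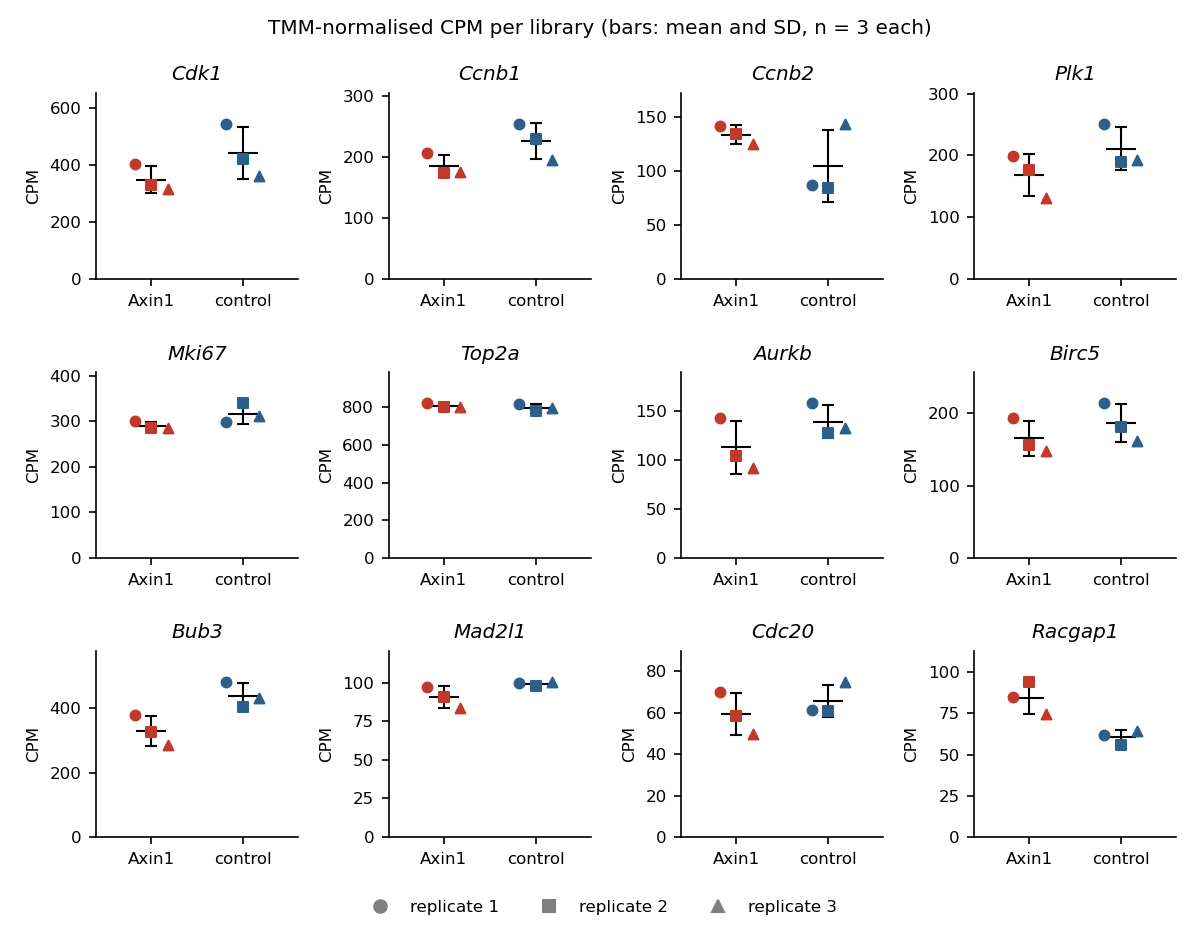
TMM-normalised CPM of 12 genes in each library, with the mean and SD of each group (n = 3 each) and symbols for the replicate number. The groups separate for Bub3, Racgap1 and, narrowly, Mad2l1, and in Ccnb2 control 3 lies with the Axin1 libraries.

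The members varied together between libraries of the same group. Axin1 library 1 was the highest of its group for 36 of 40 members and control 1 for 29 of 40, against 37.7% and 32.3% of all tested genes. Axin1 library 3 and control 3 were the lowest of their groups for 29 and 28 of the 40, against 36.0% and 36.9% of all tested genes. The median member lay 0.20 above its group mean on the log2 scale in Axin1 library 1, 0.04 below in library 2 and 0.14 below in library 3. In the controls it lay 0.13 above in library 1, 0.03 below in library 2 and 0.12 below in library 3. For all tested genes these medians lay between -0.0088 and 0.0104.

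Summed over the 40 genes, the level was 7062, 6081 and 5832 CPM in Axin1 libraries 1, 2 and 3 and 7470, 6665 and 6429 CPM in controls 1, 2 and 3. The means were 6325 ± 650.4 and 6855 ± 546.0 CPM (SD, n = 3 each), a ratio of 0.923, and the groups overlapped. Axin1 library 1 and control 1 are the libraries whose titles share the number 1813. They also held the smallest sums of erythroid markers, 238 CPM in Axin1 library 1, against 1243 and 2626 CPM in the other 2 Axin1 libraries, and 688 CPM in control 1, against 1841 and 3010 CPM in the other 2 controls. The 10 macrophage markers summed to 210.2, 1142 and 2394 CPM in Axin1 libraries and to 423, 782 and 401 CPM in controls, and all 10 had log2 fold changes above 0, with 0 called. For 6 megakaryocyte and platelet markers the sums were 490.1, 1638 and 2166 CPM in Axin1 libraries and 1190, 1172 and 1289 CPM in controls. Pericyte and mesenchyme markers stayed at 134.8 CPM or less in sum. The part of these other cells in the members' levels was not tested.

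**Figure D4:**
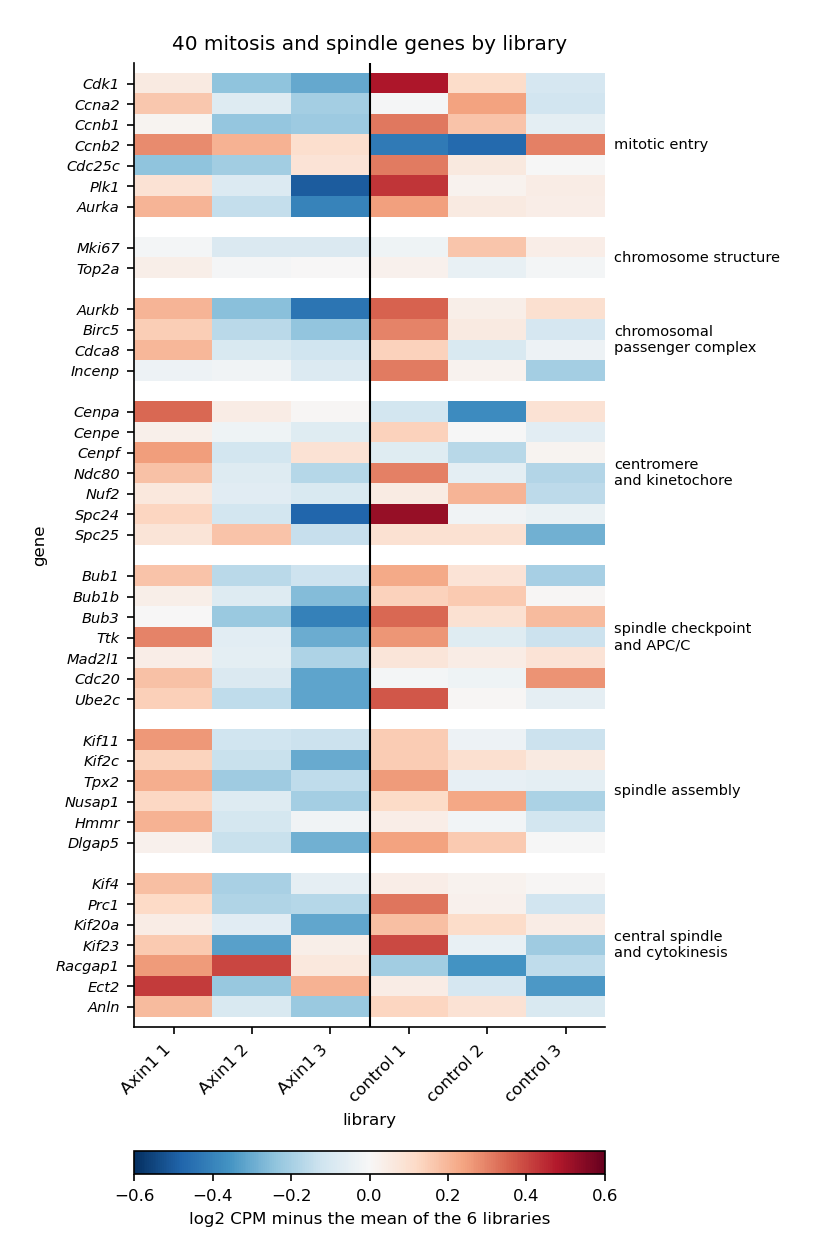
Log2 CPM of each of the 40 genes in every library, minus the mean over the 6 libraries, with red above and blue below that mean. The columns of Axin1 library 1 and control 1 are mostly red, and those of Axin1 libraries 2 and 3 are mostly blue.

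**Figure D5:**
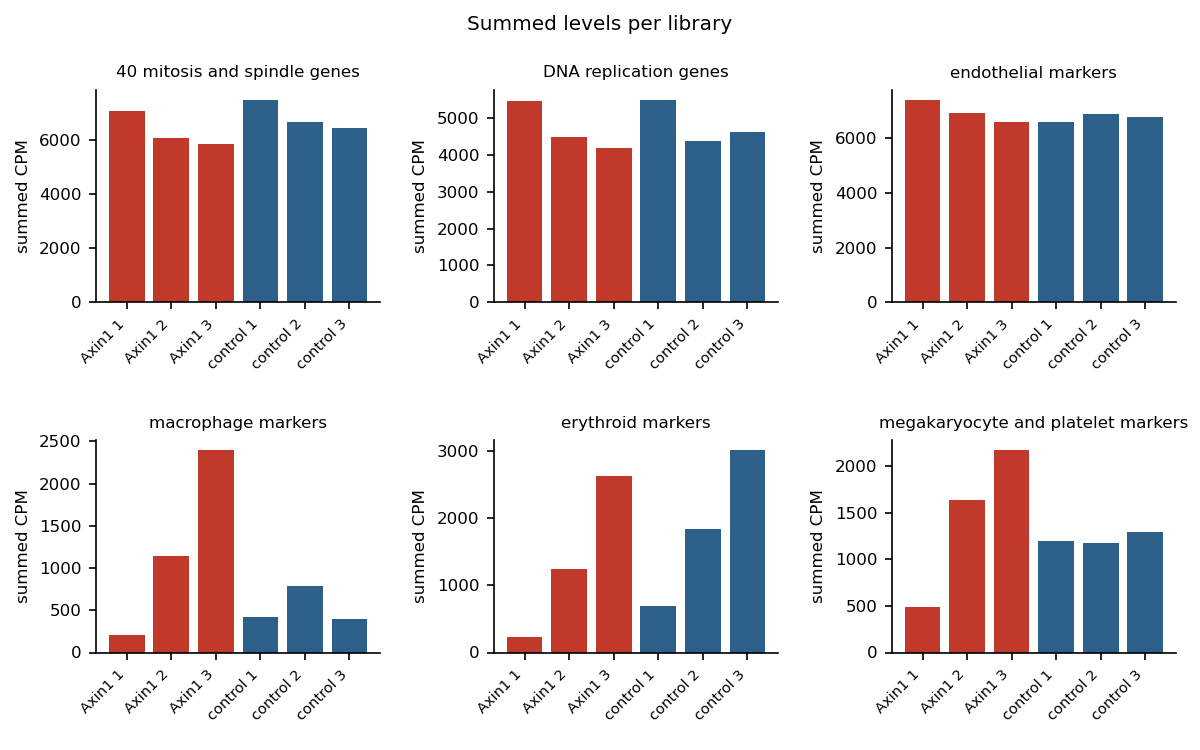
Summed CPM per library of the 40 mitotic genes, 25 DNA replication genes and 4 marker lists. The mitotic and replication sums are highest in Axin1 library 1 and control 1, and the erythroid sums are lowest there.

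The rest of the mitotic machinery was described with 5 further lists, of which 117 genes were tested. None of these genes passed edgeR's test in either direction, against 0.355% and 0.49% of all tested genes, and 20 had an unadjusted p under 0.05, against 17.2%. The median log2 fold change was 0.03 over 18 condensin and cohesin genes, -0.08 over 26 other kinetochore genes and 0.06 over 35 other spindle and centrosome genes. It was -0.04 over 15 genes of the APC/C and -0.06 over 23 genes of mitotic entry control and transcription. DESeq2 called 3 of the 117, against 5.69% of all tested genes: the kinetochore genes Cenpm (lower) and Casc5 (higher) and Rbl2 (higher).

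The largest difference in these lists was that of Rbl2, which encodes p130, the pocket protein of the repressive MuvB complex. Rbl2 was at 18.5, 16.7 and 15.9 CPM in Axin1 libraries and 9.19, 6.60 and 6.53 CPM in controls (log2 1.2, SE 0.22, edgeR adjusted p 0.0507, DESeq2 adjusted p 0.00102). Every Axin1 library lay above every control. Leaving out control 3 gave an edgeR adjusted p of 0.038, and leaving out any other library gave 0.104 to 0.214. In the same list Cdc25b, a CDC25 phosphatase, had a log2 fold change of -0.49 and Cdc25a one of 0.35 (edgeR adjusted p 0.222 and 0.274).

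Cenpm, a subunit of the inner kinetochore network, was at 22.8, 22.9 and 26.0 CPM in Axin1 libraries and 42.0, 29.9 and 43.0 CPM in controls (log2 -0.68, edgeR adjusted p 0.114). Casc5, also called Knl1, the kinetochore scaffold to which BUB3 and BUB1 bind, was at 57.8, 51.0 and 48.1 CPM in Axin1 libraries and 32.0, 35.0 and 40.4 CPM in controls (log2 0.55, edgeR adjusted p 0.116). Cenpk, of the same network as Cenpm, was at -0.35. Among condensin and cohesin genes the cohesin subunit gene Stag1 was at 0.43, the condensin gene Smc4 at 0.31 and Cdca5 (sororin), which protects cohesion, at -0.43. The citron kinase gene Cit and the centriole duplication kinase gene Plk4 were at 0.51 and 0.41, and gamma-tubulin gene Tubg1 at -0.38. Of the APC/C, Anapc2 was at 0.48, Anapc13 at -0.37 and the activator gene Fzr1, which encodes CDH1, at -0.42. Adjusted p-values of these 10 genes ran from 0.138 to 0.404 by edgeR.

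DNA replication genes, which act before mitosis, were likewise highest in library 1 of each group, while the order of controls 2 and 3 differed. The 25 genes summed to 5444, 4478 and 4185 CPM in Axin1 libraries and to 5481, 4365 and 4603 CPM in controls. Their median log2 fold change was -0.16, and 1 of 25 passed edgeR's test, against 0.355% of all tested genes higher and 0.49% lower. It was the helicase gene Mcm6, with 293, 373 and 341 CPM in Axin1 libraries and 108, 119.6 and 187 CPM in controls. The log2 fold change of Mcm6 was 1.28, with a DESeq2 adjusted p of 5.86e-07. Its edgeR adjusted p of 0.0491 lay over 0.05 when any library but control 3 was left out (0.0681 to 0.21). The cyclin gene Ccne1 and the helicase factor gene Cdc45 were at -0.60 and -0.49 (edgeR adjusted p 0.225 and 0.259).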

How the data were processed

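Expression was measured by RNA sequencing of CD31-sorted brain endothelial cells, 3 Axin1 and 3 control libraries, made with a low-input cDNA kit per the labels. The authors deposited 1 table per library with read counts and RPKM (22958 entries), per the file headers. Bowtie and the mm9 build are named in the submitters' processing notes, while the counting program and its strand setting are not. Reads of 4 members with close pseudogenes (Ccnb1, Mad2l1, Ube2c and Racgap1, at least 300 aligned bases at 95% identity, minimap2 2.31-r1302) and of 8 with an exon that overlaps an opposite-strand gene in the reference annotation (Ccna2, Plk1, Cdc20, Ube2c, Nusap1, Kif4, Prc1 and Kif20a) are uncertain.

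Counts were used as deposited. Genes were kept by filterByExpr (minimum count 10, minimum total 15), which left 12661. The main test was edgeR 4.0.16 (R 4.3.3), quasi-likelihood, robust, TMM factors (0.975 to 1.02), no covariates, two-sided, Benjamini-Hochberg adjustment over all tested genes. The standard error is the log2 fold change divided by the square root of F. Libraries of a group differed by more than sampling noise (chi-square over degrees of freedom of 15.9 to 46.5). Alternatives were other size factors, DESeq2 1.42.0, other filters, limma 3.58.1 on log2(RPKM + 1) or log2(RPKM + 0.1), a replicate block and leaving out each library. The steps were tested on simulated data. Of 144 genes in the further lists 2 were not found and 6 stood under an older symbol.

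Values per library are given for fixed proliferation genes, the 12 members with the smallest p, and the highest and lowest by RPKM. The 3 smallest p of each further list are named, with values per library only for the 4 that edgeR or DESeq2 called. That choice, Ect2 and Mad2l1 were added after the values were seen. The members and lists were chosen with earlier results of these data known. Promoter sequences are from RefSeq (GRCm38.p6), another build than the authors'.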

Additional observations from a re-analysis of the deposited data

How the results depend on the processing

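The count of 0 called members held with RLE or upper-quartile factors, DESeq2, no filter, the stricter filter, limma on either RPKM scale, the replicate block over 6 libraries and 5 of the 6 fits without 1 library. The range without 1 library was 0 to 1 (Ccnb2, without control 3). The members' median log2 fold change lay between -0.20 and -0.04 without 1 library and between -0.14 and -0.08 otherwise, and the median of all genes between -0.02 and 0.04.

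Genes called over the whole table numbered 107, 720 with DESeq2, 197 with no filter and 0 to 695 without 1 library: 695 without control 3, 33, 18 and 10 without Axin1 library 1, Axin1 library 3 and control 1, and 0 by edgeR without Axin1 library 2 or control 2, where 1733 and 1539 had an unadjusted p under 0.05. Axin1 had log2 fold changes of 1.6 to 1.85 without 1 library. Other kinetochore genes called numbered 2 with DESeq2. In the mitotic entry control list 1 gene, Rbl2, was called with DESeq2, with no filter and with the stricter filter, and 0 to 1 without 1 library. That list's median, -0.06 with all 6 libraries, lay between -0.0635 and 0.0697 without 1 library, and turned positive without Axin1 library 3. Of the replication genes 0 were called with upper-quartile factors or on log2(RPKM + 0.1), and 0 to 1 without 1 library.

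Replicate numbers were not taken as pairs in the main fit, because no label says what the title numbers mark. Over 12661 genes, deviations from the group means correlated at 0.23 between libraries 1 and 0.15 between libraries 2, which share title numbers. The crossed combinations, Axin1 library 1 with control 2 and Axin1 library 2 with control 1, were at -0.25 and -0.22. Libraries 3, with unlike title numbers, were at -0.02. Axin1 library 3 correlated best with control 2, at 0.17, above the 0.15 of libraries 2. Deviations sum to 0 within each group, so these correlations depend on one another. Between same-numbered libraries the members' median log2 difference was -0.04, -0.17 and -0.09, the last between unlike title numbers. With the number as a replicate block over 6 libraries 105 genes and 0 members were called. In the 4 libraries that share title numbers, a replicate block called 1500 genes (11.9%) and 4 members: Cdk1 (-0.40), Bub3 (-0.33), Ccnb2 (0.69) and Racgap1 (0.61). It called 2 other kinetochore genes, 2 spindle and centrosome genes, 1 APC/C gene, 1 mitotic entry control gene and 3 replication genes.

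Sign changes touched 17 members, none called, and the furthest from 0 in the main fit was Cdc20 at -0.15. With upper-quartile factors Top2a was at -0.0187 and Kif11 at -0.0288. On the RPKM scales Cdca8 was at 0.0041, and in the 4-library replicate block Cdca8, Ttk and Cdc20 were at 0.0252, 0.0176 and 0.0601. Without 1 library the ranges were -0.19 to 0.0266 for Ccna2, -0.12 to 0.0578 for Cdca8, -0.23 to 0.0363 for Incenp, -0.11 to 0.00587 for Cenpe, -0.16 to 0.0948 for Ndc80, -0.17 to 0.0205 for Nuf2, -0.0632 to 0.15 for Spc25, -0.20 to 0.0161 for Bub1, -0.21 to 0.0967 for Ttk, -0.13 to 0.0892 for Kif11, -0.24 to 0.0138 for Tpx2, -0.0368 to 0.12 for Hmmr, -0.15 to 0.0427 for Kif4, -0.24 to 0.093 for Kif23 and -0.20 to 0.0111 for Anln. The cause of these differences was not tested.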
